A study of Homo sapiens with 9 samples.

Results

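The genes described here are 49 named genes of the long arm of human chromosome 15, 15q, listed from EMC7 near the centromere to CHD2 towards the telomere. They were measured by RNA sequencing in ACHN, a long-established cell line from a human renal cell carcinoma. The table holds 57773 features, of which 12985 had a mean value of at least 10 over the 9 libraries and were tested, and all 49 genes were among them. Each gene was picked by name after the knockout libraries had been compared with the controls. Its fold changes against the controls are therefore given as a description with no p-value of its own, and counts of calls in those contrasts stand only beside the share of all tested genes. The groups were sgControl, which received a control guide RNA, and KO#1 and KO#2, in which CRISPR/Cas9 was aimed at ELOVL5, a gene of fatty acid elongation, each with its own guide. Every group had 3 libraries of the same line, with no other allele, drug or time point in the labels. Whether the edited cells were single clones or pools is not stated, and neither is whether libraries came from separate cultures, so that the error terms below cover the spread between these libraries alone. Replicate numbers follow the order of the samples; the labels state no pairing, and none was assumed.

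Chromosome 15 is acrocentric, and its protein-coding genes lie on the long arm. Neighbouring genes on an arm share DNA copy number, replication timing and chromatin context, and their RNA levels often vary together along a stretch. Many of the 49 genes serve general cell functions: they encode a ribosomal protein, a proteasome subunit, parts of vesicle tethers, mitochondrial enzymes and DNA repair factors. Others, such as SMAD6 and RAB27A, are more regulated. These data come from a single cell line, so how broadly each gene is expressed across tissues was not tested.

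Start sites with the features of broadly expressed genes were common in the group. RefSeq (GRCh38.p14) promoter windows, from 250 bases before to 50 after the first listed start, were found for 46 of the 49 genes. Their median GC content was 66.0%, against 58.7% for the 34943 promoters in the same table, and they held a median of 26 CpG dinucleotides against 14. GGGCGG, the core letters of an SP1 site, was present on either strand in 35 of 46 (76.1%) and in 44.9% of all promoters. The ETS core CCGGAA was found in 20 (43.5%), against 17.2% of all. CCAAT, the letters of the CCAAT box, occurred in 17 (37.0%), a share near the 34.6% of all promoters. TATAAA was found in 1 promoter (2.17%), against 11.6% of all. The NRF1 palindrome and the YY1 letters AAGATGGCG occurred in 1 promoter each (2.17%), against 1.23% and 1.75%. Of the 49 genes, 41 were above the median level of tested genes, whereas the comparison set was every promoter in the table, whether or not its gene was expressed. Whether these shares differ from those of other expressed genes was not tested. Motifs were counted wherever they occurred, also where matches of 2 motifs overlapped, and a match of letters is not evidence of a bound factor. The 250 bases before the start are shown for 3 genes: PPIB and RPLP1, higher in every knockout library than in every control, and CHP1, which lies in the stretch nearer the centromere and had the lowest mean of its KO#1 and KO#2 log2 fold changes. Each is printed 5′ to 3′ in the direction of transcription, with matches to the SP1, ETS and CCAAT letters on either strand in capitals.
PPIB (minus strand, chr15:64163023-64163272): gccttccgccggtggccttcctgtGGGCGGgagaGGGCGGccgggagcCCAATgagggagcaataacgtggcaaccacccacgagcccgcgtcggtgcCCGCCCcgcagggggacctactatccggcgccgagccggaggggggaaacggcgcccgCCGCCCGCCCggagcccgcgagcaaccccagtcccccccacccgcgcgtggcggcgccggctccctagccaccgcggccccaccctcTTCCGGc
RPLP1 (plus strand, chr15:69452568-69452817): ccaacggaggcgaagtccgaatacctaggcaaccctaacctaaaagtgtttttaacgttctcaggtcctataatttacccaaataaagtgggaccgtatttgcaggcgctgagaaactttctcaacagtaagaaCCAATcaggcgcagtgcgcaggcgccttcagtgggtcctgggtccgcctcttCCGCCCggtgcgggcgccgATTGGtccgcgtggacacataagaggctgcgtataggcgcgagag
CHP1 (plus strand, chr15:41231018-41231267): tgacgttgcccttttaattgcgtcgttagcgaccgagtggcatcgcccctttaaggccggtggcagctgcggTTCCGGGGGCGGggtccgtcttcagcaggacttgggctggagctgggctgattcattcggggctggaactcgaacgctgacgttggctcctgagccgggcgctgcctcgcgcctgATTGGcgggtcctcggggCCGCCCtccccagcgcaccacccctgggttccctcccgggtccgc
The PPIB window held 7 matches, the CHP1 window 4 and the RPLP1 window 3. All 3 motifs occurred in CHP1, as they did in PPIB.

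Values were quantile-normalized by the authors, so every library has the same total (8625043.6) and the depth of each library is unknown. ELOVL5, the targeted gene, stood at 1999, 2713 and 2063 in sgControl, 805, 1345 and 1016 in KO#1, and 434, 1805 and 910 in KO#2. It was lower in all 6 knockout libraries, with log2 fold changes of -1.11 (limma, adjusted p = 0.383) and -1.32 (limma, adjusted p = 0.24) that did not pass the test across all genes. Without KO#2 replicate 1 the KO#1 value passed it (limma, adjusted p = 0.0314), and the KO#2 value was -0.80 and did not (limma, adjusted p = 0.162). Renal markers were present in every library (PAX8 from 1673 to 3684), whereas the fibroblast genes DCN and LUM, the T cell gene CD3E and the erythroid gene HBB were at 0 in every library. Of the other markers outside the renal list, COL1A1 was at 27.6 to 102, VWF, an endothelial gene, at 0 to 25.1 and CD14, a monocyte gene, at 0 to 17.0, and PDGFRA, CDH5 and PTPRC were at 1.00 or below. KO#2 replicate 1 stood apart: its correlation with the other libraries of its group was 0.672 to 0.737, whereas all other pairs within a group gave 0.937 to 0.978. The KO#2 medians and counts, and the KO#2 fold changes of single genes where it matters to them, are given with and without it. Each library is a bulk sample, in which more cells carrying a level and more RNA per cell cannot be told apart.

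In KO#1 the 49 genes had a median log2 fold change of 0.50 against sgControl, and 45 of them were above 0, against a median of 0.03 and 52.5% above 0 over all tested genes. Single genes ranged from -0.97 for SMAD6 to 1.32 for IDH2. In KO#2 with all 3 libraries the median was 0.07 and 30 of 49 were above 0; without KO#2 replicate 1 it was 0.55 and 43 of 49 were above 0, where all tested genes gave -0.01 and 0.03. Library by library, knockout libraries were measured from the sgControl mean, and each sgControl library from the mean of the other sgControl libraries. The median difference over the 49 genes was 0.46, 0.44 and 0.60 in KO#1, -0.44, 0.50 and 0.47 in KO#2, and 0.01, -0.07 and 0.10 in sgControl. Thus 5 of the 6 knockout libraries lay above all controls and KO#2 replicate 1 lay below them. In 29 of 49 genes every KO#1 library was above every sgControl library, beside 18.2% of all tested genes. That count was 11 in KO#2 (9.62% of all tested genes), or 28 without KO#2 replicate 1 (18.9%). Over all 6 knockout libraries together it was 8, namely GALK2, PIGB, PPIB, MAP2K1, RPLP1, CSK, FAH and IDH2 (6.61%), and without KO#2 replicate 1 it was 22 (11.6%). The opposite order, every knockout library below every control, was found for 0 of the 49 genes in KO#1 (15.9% of all tested genes), in KO#2 (8.34%, or 17.1% without replicate 1) and over all 6 knockout libraries (5.9%, or 10.7% without KO#2 replicate 1). The fit across all genes (limma) called 0 of 49 in KO#1, where 1.36% of all tested genes were called higher and 0.97% lower. In KO#2 it called 1, GALK2, higher and 0 lower, where 1.17% of all tested genes were called higher and 0.87% lower. The GALK2 call was lost when any library other than KO#2 replicate 1 was left out. At an unadjusted p under 0.05 (limma) the counts were 7 in KO#1 and 10 in KO#2, beside 1467 and 1757 of all 12985 tested genes. Without KO#2 replicate 1 the calls became 10 higher in KO#1, where 5.99% of all tested genes were called higher (6.27% lower), and 5 higher in KO#2, where 3.88% were (4.14% lower). Since these contrasts chose the genes, no support is drawn from the counts.

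**Figure D1:**
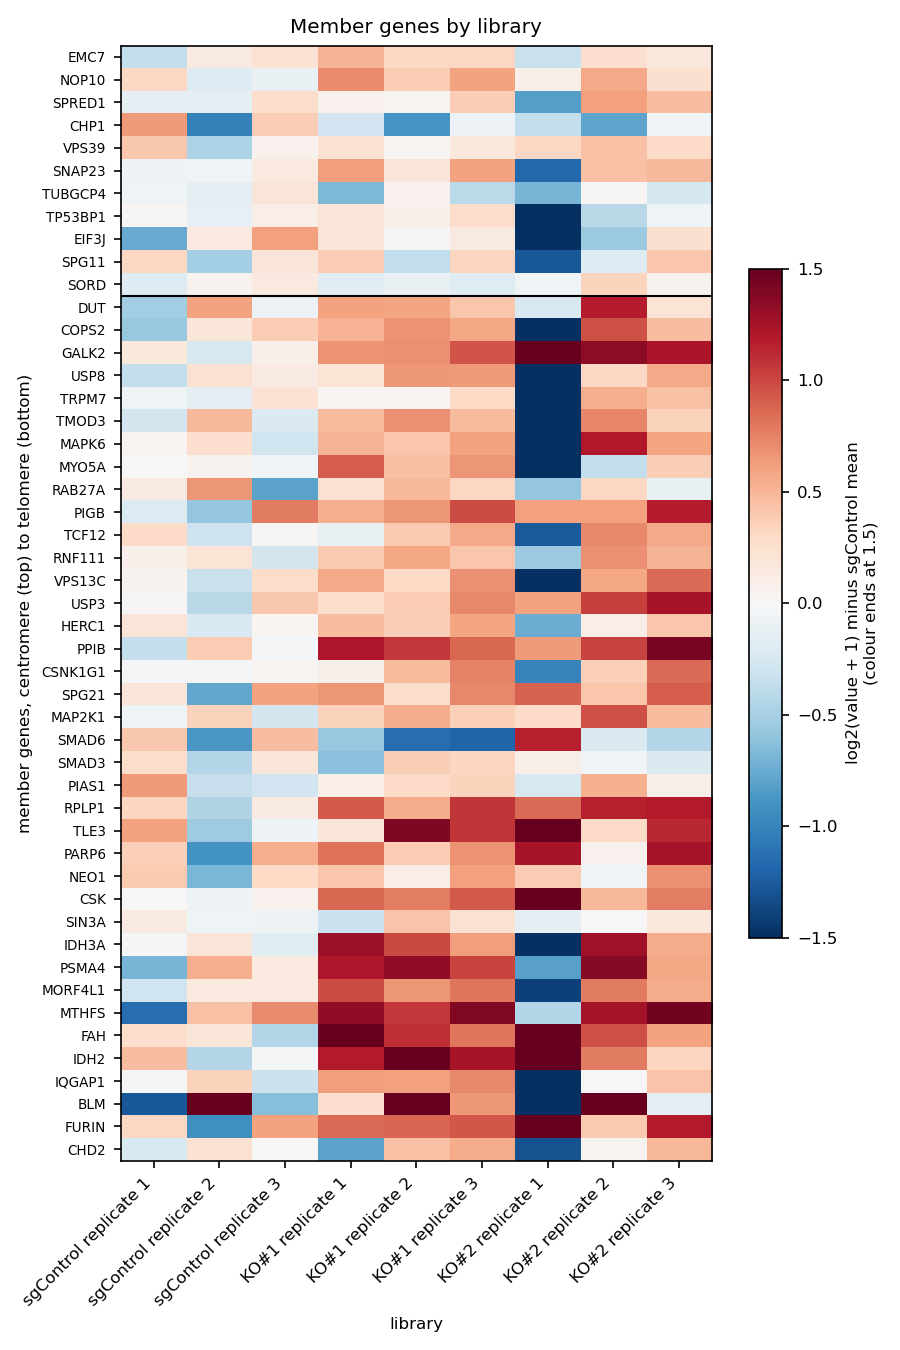
Difference of each of the 49 genes (rows, centromere at the top) in each library (columns) from the gene's sgControl mean, in log2(value + 1), with colours that end at 1.5 in either direction and a black line between SORD and DUT. Each sgControl library is measured from the mean of the other sgControl libraries. Below the line most cells of KO#1 and of KO#2 replicates 2 and 3 are red, whereas KO#2 replicate 1 holds cells at both ends of the colour scale. Cells at the red end also occur in other libraries, as for BLM in sgControl replicate 2.

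The fold changes were not even along the arm. Where the 365 other tested genes of chromosome 15 were put in order and divided at the point that best separated their KO#1 fold changes, the division fell between SQRDL and MYEF2, which places it between the listed genes SORD and DUT. This division was chosen after the values were seen. It left 11 of the 49 genes (EMC7 to SORD) with 124 others on the centromere side, and 38 (DUT to CHD2) with 241 others on the telomere side. The 11 centromere-side genes had a median log2 fold change of 0.14 in KO#1, with 8 above 0. The 38 telomere-side genes had a median of 0.55, with 37 above 0 and SMAD6 the exception. In KO#2 the corresponding medians were -0.09 and 0.15 with all libraries, and 0.19 and 0.66 without KO#2 replicate 1.

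Neighbours on either side of the division differed among themselves. SORD, the last gene of the centromere side, had log2 fold changes of -0.15 in KO#1 and 0.11 in KO#2, or 0.19 without KO#2 replicate 1. DUT, the first of the telomere side, had 0.54 and 0.38, or 0.69. Between them, SQRDL stood at -0.33 and -0.30, or -0.42, and MYEF2 at 0.38 and 0.01, or 0.69. SECISBP2L, still further towards the telomere, stood at 0.01 and -0.83, or -0.13. No single gene marks a step, and the position rests on the medians of many genes. KO#1 replicates 2 and 3 taken alone gave the same division, and KO#1 replicate 1 gave it 4 genes further on, between SECISBP2L and FAM227B. KO#2 replicate 3 also gave SECISBP2L and FAM227B, KO#2 replicate 2 gave SHF and GATM, and KO#2 replicate 1 gave SENP8 and GRAMD2, which lie far towards the telomere. With all 3 libraries KO#2 divided between RAB8B and APH1B, after 172 of the 365 genes, and without KO#2 replicate 1 between SECISBP2L and FAM227B, after 128. Without KO#2 replicate 3 it was between SENP8 and GRAMD2, after 223.

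**Figure D2:**
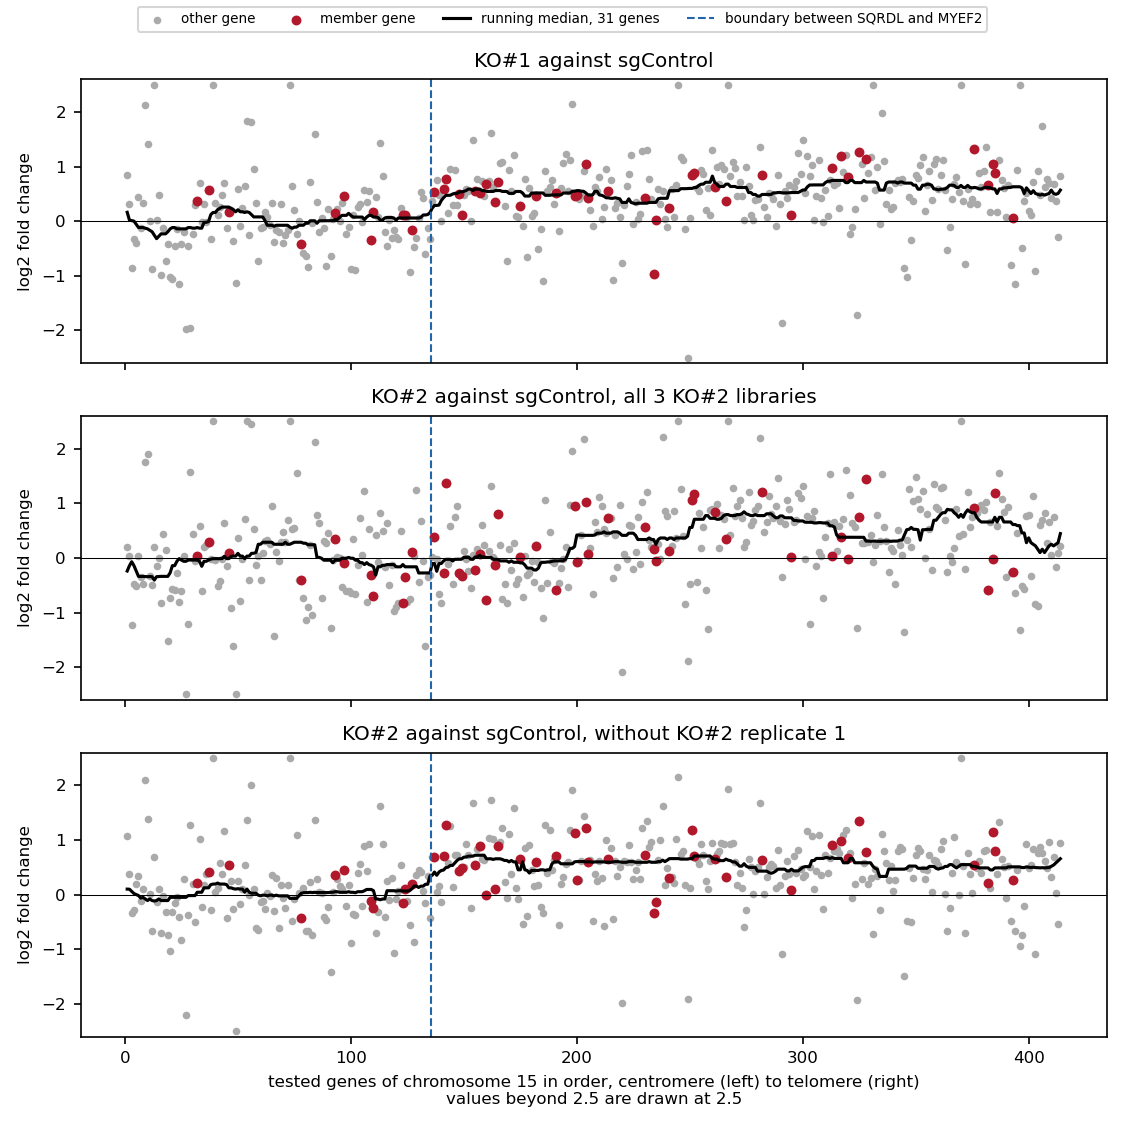
Log2 fold change against sgControl (vertical axes) of the 414 tested genes of chromosome 15 in order from centromere to telomere (horizontal axis, gene order), for KO#1, for KO#2, and for KO#2 without replicate 1; red points are the 49 genes, grey points the others, the black line the running median over 31 genes, and the dashed line the division between SQRDL and MYEF2. In the top and bottom panels the running median lies near 0 to the left of the dashed line and above 0 to its right. In KO#1 the medians of consecutive stretches wholly to its right were 0.24 to 0.84. The stretch that spans the line, from CASC4 to SLC27A2, had 0.06.

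The other genes of the chromosome were not picked one by one, but the arm itself was taken up with both contrasts against sgControl known. These other genes were also compared in KO#2 on either side of the point that KO#1 had set. Their KO#2 median was -0.03 on the centromere side and 0.42 on the telomere side with all libraries, and 0.03 and 0.52 without KO#2 replicate 1. In KO#1, whose values set the point, the medians were -0.02, with 60 of 124 above 0, and 0.57, with 209 of 241 above 0. Both comparisons use the same 3 sgControl libraries. Within each library the telomere-side median minus the centromere-side median of these genes was 0.57, 0.48 and 0.60 in KO#1, 0.52, 0.46 and 0.57 in KO#2, and 0.05, -0.10 and 0.07 in sgControl. The group means were 0.55 ± 0.06 in KO#1, 0.52 ± 0.06 in KO#2 and 0.01 ± 0.09 in sgControl (SD, n = 3 each). KO#2 replicate 1, whose gene levels differed from all other libraries, lay within the range of the other knockout libraries in this measure. For the 49 genes themselves the same difference was 0.33, 0.52 and 0.39 in KO#1, 0.35, 0.35 and 0.32 in KO#2, and 0.10, 0.09 and -0.16 in sgControl. In both measures all 6 knockout libraries lay above all 3 controls. This order is a description: the KO#1 values chose the point, and the arm and its 49 genes were picked with these contrasts known. The sgControl libraries centre near 0 because each is measured from the mean of the other sgControl libraries.

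**Figure D3:**
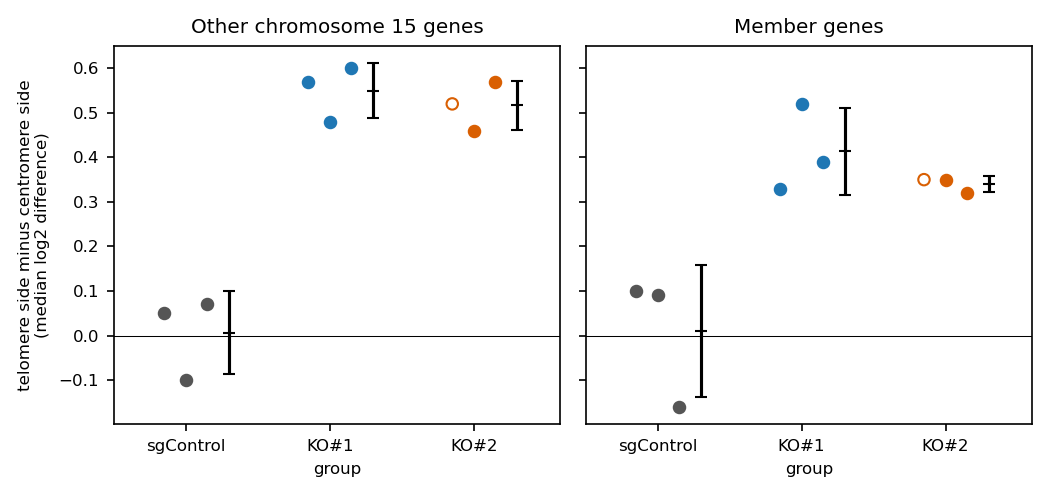
Median of telomere-side genes minus median of centromere-side genes, in log2 difference from the sgControl mean (vertical axis), for the 365 other genes (left) and the 49 genes (right) in each library, with group means and SD as bars. For each sgControl library the difference is from the mean of the other sgControl libraries. The open circle is KO#2 replicate 1, and every knockout point lies above every sgControl point.

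Taken in consecutive stretches of 20 other genes, with 33 in the last stretch up to CHD2, the KO#1 medians were 0.25, -0.09, 0.01, 0.05 and 0.06 over the first 5 stretches after EMC7. The last of these 5, from CASC4 to SLC27A2, spans the division between SQRDL and MYEF2. The next 10 stretches, up to CHD2, ranged from 0.24 to 0.84, the lowest of them being no higher than the first stretch after EMC7. KO#2 gave -0.32 to 0.29 in the first 5 and -0.23 to 0.84 in the next 10 with all libraries, so that these ranges overlapped. Without replicate 1 it gave -0.04 to 0.21 and 0.26 to 0.79. Past CHD2 the 21 remaining genes had medians of 0.51 in KO#1, 0.22 in KO#2 and 0.50 in KO#2 without replicate 1, so that the KO#1 median past the end of the list was like that before it. Before EMC7 the 31 genes had medians of -0.23, -0.34 and -0.11. The genes next to the ends of the list varied widely around these medians. Beside EMC7, SCG5 was at 32.7, 13.7 and 17.0 in sgControl, 4.11, 3.56 and 5.44 in KO#1, and 89.9, 30.9 and 78.6 in KO#2. RYR3 and AVEN had log2 fold changes of -0.23 and 0.29 in KO#1, and 0.43 and -0.06 in KO#2, or 0.19 and -0.50 without KO#2 replicate 1. Beside CHD2, MCTP2 had -1.15 in KO#1 and -0.63 in KO#2, or -0.66 without KO#2 replicate 1, and NR2F2, a nuclear receptor, 0.95 and 0.46, or 0.45. ARRDC4 was at 124 in KO#1 replicate 1 and at 12.3 and 7.89 in the other KO#1 libraries.

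Metabolic enzymes were the role group with the highest median fold changes when both sides of the division were pooled. The 6 members had a median log2 fold change of 1.05 in KO#1 and 0.83 in KO#2, or 0.85 without KO#2 replicate 1. The 5 on the telomere side had 1.14 and 0.91, or 0.91. The 5 telomere-side genes of protein synthesis, folding and turnover had 0.85 and 0.80, or 0.98, so that the order was not the same in every comparison. FAH, the last enzyme of tyrosine breakdown, stood at 202, 196 and 146 in sgControl, at 519, 387 and 313 in KO#1, and at 1215, 353 and 273 in KO#2. No knockout library overlapped the controls, and KO#2 replicate 1 was the highest of all. Its log2 fold change was 1.14 ± 0.51 (SE) in KO#1 and 1.44 ± 0.51 in KO#2, or 0.79 ± 0.27 without that library.

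IDH2, the mitochondrial isocitrate dehydrogenase that uses NADP, had 614, 405 and 490 in sgControl, 1131, 1449 and 1165 in KO#1, and 1521, 852 and 622 in KO#2. The lowest KO#2 library lay just above the highest control. Log2 fold changes were 1.32 ± 0.36 (SE) and 0.91 ± 0.36, and 0.55 ± 0.24 in KO#2 without replicate 1. GALK2, a kinase of galactose and N-acetylgalactosamine, had 151, 125 and 145 in sgControl, 224, 226 and 270 in KO#1, and 415, 356 and 327 in KO#2. The 3 groups did not overlap at all, with KO#2 the highest. Its log2 fold changes were 0.77 ± 0.29 (SE) and 1.38 ± 0.29, and 1.28 ± 0.21 in KO#2 without replicate 1.

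MTHFS, an enzyme of folate metabolism, had low values of 19.8, 42.2 and 48.0 in sgControl, 87.6, 72.8 and 91.8 in KO#1, and 25.0, 82.8 and 95.4 in KO#2. KO#2 replicate 1 fell among the controls and the other 5 knockout libraries above them. IDH3A, the catalytic subunit of the citric acid cycle isocitrate dehydrogenase, had 127, 140 and 118 in sgControl, 316, 255 and 198 in KO#1, and 37.6, 310 and 188 in KO#2. Here KO#2 replicate 1 lay below the controls, and the other 5 above them. SORD, sorbitol dehydrogenase and the only enzyme of the list on the centromere side, ranged from 258 to 272 in KO#1 and from 268 to 314 in sgControl.

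Genes of protein synthesis, folding and turnover came next, with a median of 0.66 over 8 genes in KO#1 and all 8 above 0. In KO#2 the median was 0.34, or 0.80 without replicate 1. PPIB, cyclophilin B, a proline isomerase of the endoplasmic reticulum with 7 motif matches in its promoter, had 668, 939 and 780 in sgControl, 1833, 1640 and 1430 in KO#1, and 1229, 1590 and 2108 in KO#2. All 6 knockout libraries lay above all controls, including KO#2 replicate 1. Log2 fold changes were 1.04 ± 0.30 (SE) and 1.02 ± 0.30, and 1.22 ± 0.22 in KO#2 without replicate 1.

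RPLP1, a protein of the ribosomal stalk, had 8044, 5613 and 7316 in sgControl, 13065, 10157 and 14495 in KO#1, and 12505, 15456 and 15791 in KO#2. Again no library overlapped between knockouts and controls. Its log2 fold changes were 0.85 ± 0.28 (SE) and 1.07 ± 0.28, and 1.18 ± 0.23 in KO#2 without replicate 1. PSMA4, an alpha subunit of the proteasome core, had 414, 735 and 612 in sgControl, 1330, 1433 and 1154 in KO#1, and 324, 1477 and 855 in KO#2. KO#1 lay well above the controls, while KO#2 replicate 1 was the lowest of all 9 libraries. The log2 fold change was 1.19 ± 0.49 (SE) in KO#1 and 0.38 ± 0.49 in KO#2, or 0.98 ± 0.30 without that library.

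PIGB, a mannosyltransferase of GPI anchor synthesis, had log2 fold changes of 0.73 in KO#1 and 0.80 in KO#2, or 0.90 without replicate 1, with every knockout library above every control. COPS2, a subunit of the COP9 signalosome, had 0.59 and -0.27, or 0.71 in KO#2 without replicate 1, where its value was 135 against 1239 and 880 in the other KO#2 libraries. Of the 3 genes on the centromere side, NOP10, a protein of H/ACA ribonucleoproteins, had 0.56 and 0.30, or 0.41 without KO#2 replicate 1, and EMC7, a subunit of the membrane insertion complex of the endoplasmic reticulum, 0.37 and 0.03, or 0.21. EIF3J, a subunit associated with initiation factor 3, had 503, 764 and 947 in sgControl, 813, 726 and 783 in KO#1, and 162, 485 and 847 in KO#2. Its KO#1 libraries lay within the control range.

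Genes of DNA repair, chromatin and transcription had a median of 0.50 in KO#1, with 10 of 10 above 0, and 0.01 in KO#2, or 0.66 without replicate 1. TLE3, a co-repressor of the Groucho family, had 263, 155 and 192 in sgControl, 226, 523 and 419 in KO#1, and 862, 243 and 435 in KO#2. Its lowest knockout libraries overlapped the controls. Log2 fold changes were 0.88 ± 0.50 (SE) and 1.18 ± 0.50, and 0.71 ± 0.39 in KO#2 without replicate 1. MORF4L1, a chromodomain protein of the NuA4 acetyltransferase complex, had 0.81 in KO#1 and -0.02 in KO#2, or 0.66 without replicate 1. USP3, a histone deubiquitinase, had 0.46 and 0.96, or 1.14 without KO#2 replicate 1, and PARP6, a mono-ADP-ribosyltransferase, 0.62 and 0.85, or 0.65. BLM, the helicase of Bloom syndrome, had a fold change of 1.05 in KO#1 with an SE of 1.06: its values were 48.9, 216 and 65.8 in sgControl, 106, 421 and 140 in KO#1, and 16.4, 479 and 80.7 in KO#2. In every group replicate 2 stood far above the other 2 libraries, and the groups overlapped. CASC5 and NUSAP1, also on chromosome 15, were likewise highest in replicate 2 of every group. What, if anything, the second libraries share is not stated in the labels, and no term for it was fitted.

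TP53BP1, which binds at double-strand breaks and lies on the centromere side, had 1131, 1055 and 1174 in sgControl, 1276, 1180 and 1350 in KO#1, and 367, 839 and 1067 in KO#2. The KO#1 libraries lay just above the controls, and 2 of the KO#2 libraries below them. The remaining genes of this group were DUT (dUTPase), TCF12 (a helix-loop-helix transcription factor), SIN3A (a co-repressor scaffold) and CHD2 (a chromatin remodeller). They had KO#1 log2 fold changes of 0.54, 0.29, 0.11 and 0.06. The KO#2 values were 0.38, 0.01, 0.01 and -0.26, or 0.69, 0.65, 0.08 and 0.27 without replicate 1.

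Membrane traffic and endosome genes had a median of 0.47 in KO#1, with 10 of 11 above 0, and -0.13 in KO#2, or 0.37 without replicate 1. FURIN, the proprotein convertase of the trans-Golgi network, had 432, 244 and 496 in sgControl, 675, 683 and 712 in KO#1, and 1473, 492 and 856 in KO#2. KO#1 did not overlap the controls, and KO#2 did so through replicate 2. Log2 fold changes were 0.88 ± 0.43 (SE) and 1.19 ± 0.43, and 0.79 ± 0.33 in KO#2 without replicate 1. CHP1, a calcium-binding cofactor of sodium-proton exchangers on the centromere side, had 1698, 791 and 1495 in sgControl, 1037, 685 and 1183 in KO#1, and 978, 727 and 1210 in KO#2. The groups overlapped, and replicate 2 was the lowest library of every group. Its log2 fold changes, those of CHP1, were -0.42 ± 0.38 (SE) and -0.41 ± 0.38, and -0.43 ± 0.37 in KO#2 without replicate 1.

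The lipid transfer protein VPS13C and the motor MYO5A showed how much KO#2 replicate 1 weighs in this group. VPS13C had 3067, 2541 and 3343 in KO#1 against 2126, 1778 and 2350 in sgControl, and 225, 3098 and 3724 in KO#2. MYO5A had 1047, 762 and 887 in KO#1 against 561, 572 and 543 in sgControl, and 113, 433 and 721 in KO#2. For VPS13C the other 2 KO#2 libraries lay above the controls, and for MYO5A they lay on either side. The endosomal deubiquitinase USP8, the giant ubiquitin ligase HERC1, the SNARE protein SNAP23 and SPG21, also called maspardin, had KO#1 log2 fold changes of 0.50, 0.47, 0.47 and 0.55. The KO#2 fold changes were -0.27, -0.07, -0.09 and 0.73, or 0.44, 0.26, 0.46 and 0.66 without replicate 1. VPS39, a subunit of the HOPS tether, had 0.14 in KO#1, SPG11, which acts in lysosome reformation, 0.11, and RAB27A, a small GTPase of secretory granules, 0.35. These genes had 0.35, -0.35 and -0.13 in KO#2, or 0.37, 0.11 and 0.10 without replicate 1.

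Kinases and other signalling genes had a median of 0.40 in KO#1, with 11 of 12 above 0, and 0.10 in KO#2, or 0.52 without replicate 1. CSK, the kinase that restrains Src family kinases, had 368, 354 and 378 in sgControl, 669, 622 and 692 in KO#1, and 1862, 517 and 626 in KO#2. The controls lay close together, and every knockout library lay above them. Log2 fold changes were 0.85 ± 0.44 (SE) and 1.20 ± 0.44, and 0.63 ± 0.19 in KO#2 without replicate 1. MAP2K1, or MEK1, of the ERK pathway, had 263, 319 and 238 in sgControl, 344, 399 and 349 in KO#1, and 331, 532 and 377 in KO#2, again without overlap. MAPK6, an atypical MAP kinase, had 0.51 in KO#1 and 0.07 in KO#2, or 0.90 without replicate 1.

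The TGF-beta and BMP pathway genes of the list did not share a direction. SMAD6, an inhibitor of BMP signalling, was the telomere-side exception, with 271, 150 and 279 in sgControl, 151, 101 and 97.3 in KO#1, and 504, 193 and 165 in KO#2. KO#1 was low, overlapping the controls through its highest library, and KO#2 held the highest library of all. SMAD3, a receptor-regulated SMAD, had log2 fold changes of 0.02 and -0.06, or -0.13 without KO#2 replicate 1, and RNF111, a ubiquitin ligase that removes SMAD inhibitors, 0.46 and 0.22, or 0.60. The scaffold IQGAP1, the casein kinase CSNK1G1 and the receptor neogenin, NEO1, had 0.66, 0.43 and 0.38 in KO#1. Their KO#2 values were -0.59, 0.07 and 0.34, or 0.21, 0.60 and 0.32 without replicate 1. The SUMO ligase PIAS1 had 0.24 in KO#1, SPRED1, an inhibitor of Ras signalling on the centromere side, 0.16, and the channel kinase TRPM7 0.12. For these genes KO#2 gave 0.12, 0.08 and -0.33, or 0.31, 0.54 and 0.50 without replicate 1.

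The 2 cytoskeletal genes lay on opposite sides of the division. TUBGCP4, of the gamma-tubulin ring complex on the centromere side, had 430, 417 and 487 in sgControl, 278, 466 and 335 in KO#1, and 274, 451 and 369 in KO#2. TMOD3, which caps the pointed ends of actin filaments, had 715, 1017 and 734 in sgControl, 1128, 1310 and 1126 in KO#1, and 239, 1345 and 1031 in KO#2. TUBGCP4 overlapped between all groups, with log2 fold changes of -0.34 and -0.31, or -0.12 without KO#2 replicate 1, and TMOD3 was above the controls in 5 knockout libraries and below them in KO#2 replicate 1.

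KO#2 was compared with KO#1 directly, a contrast that did not choose the genes. The fit across all genes (limma, Benjamini-Hochberg adjustment) called 0 of 49, beside 0.0% of all tested genes in either direction, and 4 of 49 had an unadjusted p under 0.05, beside 529 of all 12985. The median difference, KO#2 minus KO#1, was -0.27 log2 with all libraries and 0.03 without KO#2 replicate 1. Without that library limma again called 0 of 49, beside 0.0539% of all tested genes higher and 0.0462% lower. An unadjusted p under 0.05 (limma) was then found for 5 of 49, beside 843 of all 12985. With all libraries the adjusted p-values of the 49 genes (limma) were 0.748 or higher. The largest difference towards KO#1 was that of MYO5A, -1.44 (95% interval -2.68 to -0.20; limma, adjusted p = 0.748). SMAD6 had the largest towards KO#2, 1.14 (95% interval 0.09 to 2.18; limma, adjusted p = 0.748). Leaving out KO#2 replicate 1 moved the KO#2 log2 fold change of MYO5A against sgControl from -0.76 to 0.00, beside 0.67 in KO#1. That of SMAD6 moved from 0.17 to -0.33, beside -0.97 in KO#1. For PPIB the 95% interval of KO#2 minus KO#1 was narrower, -0.69 to 0.64 around -0.02, and for GALK2 it was -0.04 to 1.25 around 0.61. Intervals of this width do not show that the levels with both guides were equal. Library values did not overlap for 4 genes higher in KO#2 (VPS39, SORD, GALK2 and SMAD6; 4.45% of all tested genes) and 4 lower (EMC7, TP53BP1, MYO5A and IQGAP1; 4.49%).

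In KO#2 replicate 1 the differences of the 49 genes followed the GC content of their transcripts. Across the 49 genes the Pearson correlation between these quantities was 0.72, and across the 12443 tested genes with a transcript it was 0.70. In the other 8 libraries it lay between -0.33 and 0.34 for the 49 genes. These are descriptions across genes of the same library, not independent points. COPS2, with a GC content of 33.7%, was at 135 in this library, and CSK, with 63.6%, was at 1862. The 49 genes had a median GC content of 44.0%, below the 48.5% of all tested genes. By side of the division the 49 genes had a median GC content of 45.7% (centromere side) and 43.6% (telomere side). The other genes of chromosome 15 had nearly the same GC content on both sides, 47.3% and 47.6%. What part GC content has in the KO#2 values was not tested beyond leaving out this library.

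**Figure D4:**
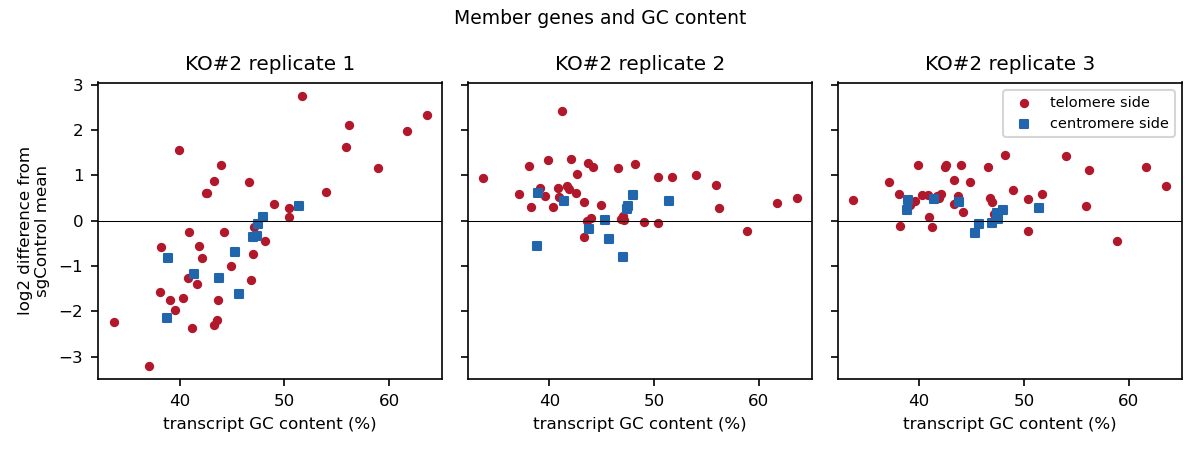
Difference of each of the 49 genes from its sgControl mean in log2 (vertical axis) against the GC content of its longest transcript in percent (horizontal axis) in the 3 KO#2 libraries; red circles are telomere-side and blue squares centromere-side genes. The points climb from left to right in replicate 1, with a correlation of 0.72, and not in replicates 2 and 3.

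Of the 365 other chromosome 15 genes, limma called 10 higher and 1 lower in KO#1 (beside 1.36% and 0.97% of all tested genes) and 4 higher and 2 lower in KO#2 (beside 1.17% and 0.87%). Without KO#2 replicate 1 the counts were 60 and 10 in KO#1 and 38 and 5 in KO#2, beside 5.99% and 6.27%, and 3.88% and 4.14%, of all tested genes. The genes with the highest mean fold changes among those above the median level were SNHG14, ADAMTS7, IMP3, AEN and ALDH1A3, of which SNHG14 alone lies on the centromere side. SNHG14, a long non-coding RNA that hosts small nucleolar RNAs, was at 180, 197 and 206 in sgControl and at 814, 899 and 845 in KO#1 (log2 fold change 2.13 ± 0.34 SE; limma, adjusted p = 0.00859). That call was lost without sgControl replicate 1 and without any 1 of the 3 KO#1 libraries, with adjusted p-values in limma up to 0.0577. AEN, a nuclease, had log2 fold changes of 1.13 and 1.30 (limma, adjusted p = 0.125 and 0.0724). Both passed when KO#2 replicate 1 was left out, at 1.13 and 0.98 (limma, adjusted p = 0.00148 and 0.00893). The lowest were THBS1, MTMR10, TJP1, CASC5 and NUSAP1, all on the centromere side. THBS1, the matrix protein thrombospondin, was at 32238, 36866 and 36866 in sgControl, 19643, 18746 and 11438 in KO#1, and 3698, 5746 and 6043 in KO#2. It fell by 2.80 on the log2 scale in KO#2 (limma, adjusted p = 0.00175), or by 2.58 without replicate 1 (limma, adjusted p = 0.000383).

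Several of the 49 proteins work in complexes whose other subunits are encoded elsewhere. A list of such partners held 81 tested genes on other chromosomes. Their median log2 fold change was 0.07 in KO#1 and 0.13 in KO#2, or 0.16 without KO#2 replicate 1. In each of the 3 comparisons (KO#1, KO#2, and KO#2 against KO#1) limma called 0 of 81. At an unadjusted p under 0.05 (limma) the counts were 3, 7 and 1, beside 1467, 1757 and 529 of all 12985 tested genes. Without KO#2 replicate 1, COPS5, GPS1, IDH3B and PSMA7 were called higher in KO#1 (4 of 81, beside 5.99% of all tested genes). COPS5 was then also called higher in KO#2 (beside 3.88%). The KO#1 log2 fold changes of these 4 genes were the same with and without that library (0.80, 0.65, 0.63 and 1.01). The KO#1 medians of chromosomes 20 and 8 were also above 0 (0.65 and 0.31), and which partners lie there was not examined. PSMA4 stood at 1.19 in KO#1, above all 11 tested proteasome core subunits of the list, whose median was 0.32 and whose highest was 1.01. MORF4L1, at 0.81, lay above all 9 NuA4 partners of the list, whose median was 0.01. RPLP1, at 0.85, lay above both other stalk proteins, RPLP0 and RPLP2, which had a median of 0.02. COPS2, at 0.59, lay above 6 of 8 signalosome partners. In KO#2 with all libraries PSMA4 lay above 10 of 11 partners, RPLP1 above both, MORF4L1 above 6 of 9, COPS2 above 3 of 8, IDH3A above 0 of 2, BLM above 1 of 3 and EIF3J above 2 of 12. These counts without KO#2 replicate 1 were 11, 2, 9, 7, 2, 3 and 2. On the centromere side in KO#1, NOP10 stood at 0.56 against a median of 0.52 over 3 partners, and TUBGCP4, at -0.34, lay below all 4 of its partners. These positions are descriptions, since the 49 genes were chosen for being high.

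Among 23 chromosomes, the median of all tested genes of chromosome 15 (0.41) ranked 2nd in KO#1, after chromosome 20 (0.65) and before chromosome 8 (0.31). In KO#2 it ranked 4th (0.22) with all libraries and 3rd (0.38) without replicate 1, after chromosomes 20 (0.54) and 8 (0.41). A raised median was therefore not particular to chromosome 15.

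**Figure D5:**
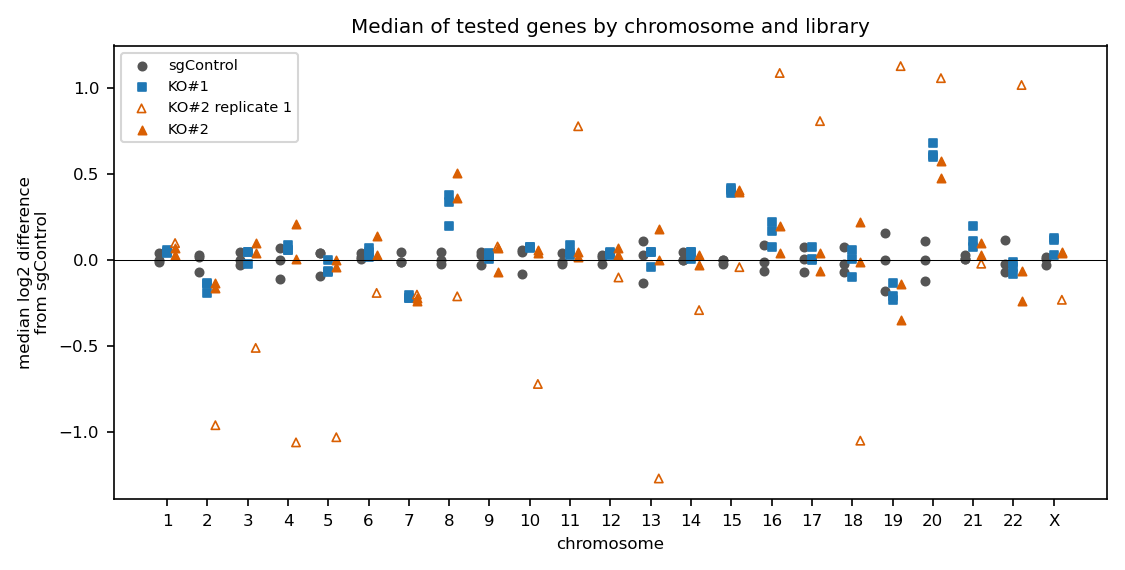
Median log2 difference from the sgControl mean over the tested genes of each chromosome (horizontal axis) in each library (points; sgControl circles, KO#1 squares, KO#2 triangles, KO#2 replicate 1 open). For each sgControl library the difference is from the mean of the other sgControl libraries. On chromosome 15 the KO#1 libraries lie at 0.39 to 0.42 and KO#2 replicates 2 and 3 at 0.41 and 0.40, and KO#2 replicate 1, at -0.04, departs from the other libraries on many chromosomes.

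Some of the 49 genes share sequence with others, and how the counting treated strand is not given in the sources used here. TP53BP1 and TUBGCP4 overlap on opposite strands by 3732 exon bases, PIAS1 and CALML4 by 3260, GALK2 and FAM227B by 912, PPIB and SNX22 by 519, and PIGB and CCPG1 by 443. DUT has 8 annotated pseudogene copies, MAPK6 and MORF4L1 have 6 each and RPLP1 has 4. Values of these genes are uncertain to the extent that reads were shared.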

How the data were processed

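RNA of 9 ACHN libraries was prepared with RNeasy Mini columns and a directional NEBNext Ultra kit and read as paired ends on a NextSeq500, per the labels' protocols. The deposited values are a signal per gene name that the authors made from total read counts and quantile-normalized, going by the title of the table. All libraries hold the same sorted values (0 ranks differ). No aligner or counter is named in the labels or headers. Because the submitters' processing notes give a mouse build, mm10, for human gene names, chromosome and order come from RefSeq GRCh38.p14 and GENCODE annotation matched by symbol (12470 of 12985 tested genes placed).

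Values were analysed as log2(value + 1) where the mean was 10 or more (12985 features), a scale that compresses the fold changes of low genes. limma 3.58.1 (R 4.3.3) fitted the 3 groups together, with a variance trend and moderation, and tests were two-sided at a Benjamini-Hochberg adjusted p under 0.05 over all 12985. The fit was also run on simulated data, in which each gene had the same spread in every library. Those data held no library that stood apart as KO#2 replicate 1 did, so they do not show how calls behave with it. Summaries used Python 3.11.15 with pandas 2.3.3. SE is limma's moderated standard error, and intervals are at 95%.

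The 49 genes, the partner list and the role groups were chosen with earlier results of these data known. All 49 are named, with values in every library for the 10 highest and 5 lowest by the mean of both log2 fold changes and for at least 1 gene of each role. Also named are ELOVL5, the 5 highest and 5 lowest other chromosome 15 genes by that mean among those above the median level of tested genes (252), the 3 neighbours beyond EMC7 and beyond CHD2, and called partners; further genes were named after their values were seen. Alternatives were other pseudocounts, filters, centring, library weights (limma arrayWeights), the compared groups alone, and leaving out each library.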

Additional observations from a re-analysis of the deposited data

Results flagged for a closer look

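TP53BP1 was lower in KO#2 than in KO#1 by a log2 difference of -0.87. It stands out because every KO#1 library lay above the mean of the controls and every KO#2 library below it. The difference did not pass the direct test (limma, adjusted p = 0.748), and the exons of TP53BP1 overlap those of TUBGCP4 on the other strand. KO#2 replicate 1 was at 367, against 839 and 1067 in the other KO#2 libraries. Against sgControl the log2 fold changes of TP53BP1 were 0.18 in KO#1 and -0.70 in KO#2, or -0.24 without that library.

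SCG5, next to EMC7 on the centromere side, showed the opposite order. Its KO#1 libraries were at 4.11, 3.56 and 5.44, its KO#2 libraries at 89.9, 30.9 and 78.6, and the control mean was 21.1, a log2 difference of 3.53 between the guides (limma, adjusted p = 0.212). All 6 knockout libraries lay on these sides of the control mean, but KO#2 overlapped the controls. KO#2 replicate 2, at 30.9, was below sgControl replicate 1, at 32.7.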

How the results depend on the processing

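No called value changed sign under any alternative run, among 588 comparisons of summary values and 2381 of single genes with their main values. Of these, 466 and 2153 were classed as the same. For medians that class allowed small shifts, also through 0. The KO#2 median of the 49 genes, 0.07, was classed as the same at -0.08 without KO#2 replicate 2. Library weights, the compared groups alone and leaving out KO#2 replicate 1 moved the counts of calls most. Of the 49 genes, 12 were called higher in KO#1 when the compared groups were fitted alone and 17 higher and 1 lower with library weights; the count over single left-out libraries ran from 0 to 10. In KO#2 the count was 0 with the compared groups alone, 6 with weights and 0 to 5 over left-out libraries, the highest of both ranges being without KO#2 replicate 1. The KO#2 median of the 49 genes was 0.50 with weights and -0.08 to 0.55 over left-out libraries, and it was below 0 without KO#2 replicate 2. Genes of the list with no overlap, higher, numbered 11 to 28 in KO#2, 8 to 22 over all knockout libraries and 4 to 8 in KO#2 against KO#1.

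For the other chromosome 15 genes the KO#1 median was 0.34 with a pseudocount of 10, 0.27 without a filter, 0.41 with a mean of at least 100, 0.39 when centred on genes off the chromosome, and 0.36 to 0.42 over left-out libraries. Calls in KO#1, higher and lower, were 6 and 3 without a filter, 4 and 0 with the stricter filter, 73 and 12 with the compared groups alone, 102 and 15 with weights, and 1 to 60 and 0 to 10 over left-out libraries. In KO#2 they were 1 and 1 with the compared groups alone and 40 and 7 with weights, 1 lower with the stricter filter, and 1 to 38 and 1 to 5 over left-out libraries. KO#2 against KO#1 gave 1 higher and 2 lower with weights and 0 to 1 lower over left-out libraries.

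Complex partners called in KO#1 were 5 higher with the compared groups alone and 9 higher and 1 lower with weights, and 0 to 4 higher over left-out libraries; in KO#2 the range was 0 to 1, and their KO#1 median ran from 0.07 to 0.14. Of all tested genes, 177 higher and 126 lower in KO#1 became 53 and 52 with the stricter filter, 915 and 968 with the compared groups alone, 1376 and 1389 with weights, and 65 to 778 and 27 to 814 over left-out libraries. In KO#2, 152 and 113 became 56 and 47, 46 and 33, 611 and 682, and 66 to 504 and 29 to 538. KO#2 against KO#1 gave 2 and 2 with a pseudocount of 10, 12 and 12 with weights, and 0 to 7 and 0 to 6 over left-out libraries. In counts over left-out libraries the highest value came without KO#2 replicate 1 in each case; lower counts also rest on fewer libraries. The cause of the other shifts was not tested.

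Centring on all tested genes changed nothing, because quantile normalization gives each library the same distribution. The point that divides the chromosome, added after the data had been seen, stayed between SQRDL and MYEF2 in KO#1 except without a filter (SLC12A1 and FBN1), without KO#1 replicate 2 (SECISBP2L and FAM227B) and without KO#1 replicate 3 (MYEF2 and FBN1). In KO#2 it lay between RAB8B and APH1B except with the stricter filter (TRIP4 and ZNF609), with weights and without KO#2 replicate 1 (SECISBP2L and FAM227B), and without KO#2 replicate 3 (SENP8 and GRAMD2). No paired analysis was possible because the labels and columns carry no replicate numbers, those used here being places in sample order. Depth cannot be read from these values, so low genes such as MTHFS carry an unknown counting error.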
